A study of Mus musculus with 6 samples.

Results

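The genes described here are 40 mouse genes that encode cyclins, cyclin-dependent kinases and proteins of mitosis. They were chosen by name and not by a measured value, and all 40 were found among the 53135 named genes and unnamed loci of the deposited tables. Their RNA was measured by total RNA sequencing in 6 libraries of mouse Sertoli cell lines, Sertoli cells being the somatic cells that support germ cells in the testis tubule. The GFP-positive group (replicates 2, 4 and 7) expressed a green fluorescent protein reporter carried on the Y chromosome, and the GFP-negative group (replicates 9, 11 and M) did not. Every group was of the same labelled cell type, and the labels used here name no strain, age, treatment, promoter of the reporter or further allele. They also do not say whether the libraries of a group came from separate lines, clones or cultures, so the p-values below measure nothing beyond the spread among these 6 samples, and that spread may be technical. The comparison asks how the cell-cycle genes differ between lines that show the reporter and lines that do not.

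A cell divides by switching on a series of cyclins, each of which activates a partner kinase. D-type cyclins with Cdk4 and Cdk6 act early in G1, E- and A-type cyclins with Cdk2 carry the cell into and through DNA synthesis, and B-type cyclins with Cdk1 start mitosis, after which the anaphase-promoting complex destroys them. In the testis Sertoli cells multiply before puberty and then leave the cell cycle, and Ccnd2 is the D-type cyclin best known from their proliferation.

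Aligned bases came to 11.2 to 11.8 Gb in each GFP-positive library and to 8.25 to 10.02 Gb in each GFP-negative library. Levels are given in FPKM, a read density corrected for transcript length and for the number of mapped fragments, summed over the named transcripts of a gene and scaled between libraries. GFP-negative 9 stood apart from its group: on the first principal component, which held 62.96% of the variance, it lay at 20.19, against 69.25 and 87.67 for GFP-negative M and 11 and -65.84 to -50.24 for the GFP-positive libraries. Of 16 Sertoli markers, Sox9, Wt1, Amh and Dhh were among those present in every library, while Rhox5 stayed under 0.5 FPKM in all of them. Gata1 was listed at 0 in GFP-positive 2, GFP-negative 9 and GFP-negative 11, and Rhox8 at 0 in GFP-positive 7 and GFP-negative 11. Of the 14 Sertoli markers tested, Dmrt1 was higher in the GFP-positive libraries (log2 difference 1.104) and Sox9 (-1.91), Gata4 (-1.81) and Tjp1 (-1.55) were lower. The other 10 did not pass, and the median difference was 0.11. The share called was near that of all genes tested, 25.9% of which were called in either direction. What part the Sertoli list has in the results below was not tested. Clu and Cldn11 had the highest means of that list, and its sum lay between 1730 and 3536 FPKM for GFP-positive and between 792 and 3441 FPKM for GFP-negative libraries. Markers of germ cells moved with the groups: 9 of the 14 tested were higher in the GFP-positive libraries and 0 were lower, beside 14.5% and 11.4% of all genes. The median log2 difference of the germ cell list was 2.01, and it summed to 138 to 194 FPKM against 94.5 to 104 FPKM. Most of that sum in each GFP-negative library was Uchl1, which was not called (log2 difference -0.90). Uchl1 (18.7, 97.7 and 72.3 FPKM in GFP-positive 2, 4 and 7, and 92.1, 96.7 and 98.8 FPKM in GFP-negative 9, 11 and M) and Mael (49.4, 9.15 and 16.2 FPKM, and 0.391, 0.161 and 0.536 FPKM) had the highest means of the germ cell list, and the protamine gene Prm1 was listed at 0 in all 6 libraries. The germ cell sum was highest in GFP-positive 2. The part of germ cell RNA in the results below was not tested. The other marker lists gave no call in the GFP-positive direction: 2 of 7 peritubular myoid, 1 of 5 Leydig, 1 of 6 fibroblast, 1 of 2 macrophage and 0 of 1 endothelial markers tested were called, all of them lower. Of all genes 11.4% were called lower, and lists this short cannot be told apart from that share.

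Of the 40 cyclin and mitosis genes, 17 were higher in the GFP-positive libraries, 3 were lower and 20 did not pass the test. The test was limma on log2(scaled FPKM + 0.5) over 15118 genes with a Benjamini-Hochberg adjusted p below 0.05, and all 40 passed the filter on low values. Across all genes tested the same threshold called 14.5% higher and 11.4% lower, 25.9% in all. The median log2 difference of the 40 genes was 0.98, beside 0.02 for all genes tested, and 32 of them had a positive difference. The genes that rose were Cdk4, Ccne1, Ccne2, Ccna2, Cdk1, Ccnb1, Ccnb2, Cdc25c, Bub1, Mad2l1, Ttk, Kif11, Kif20a, Kif2c, Nusap1, Top2a and Ube2c, and those that fell were Ccnd2, Ccnd3 and Cdk6. Every GFP-positive library lay above every GFP-negative library for 17 genes (23.6% of all genes), which were the rising genes without Ube2c and with Cdk2, and below for the 3 falling genes (22.1% of all genes). In bulk RNA a smaller number of dividing cells and less of each RNA per dividing cell cannot be told apart.

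**Figure D1:**
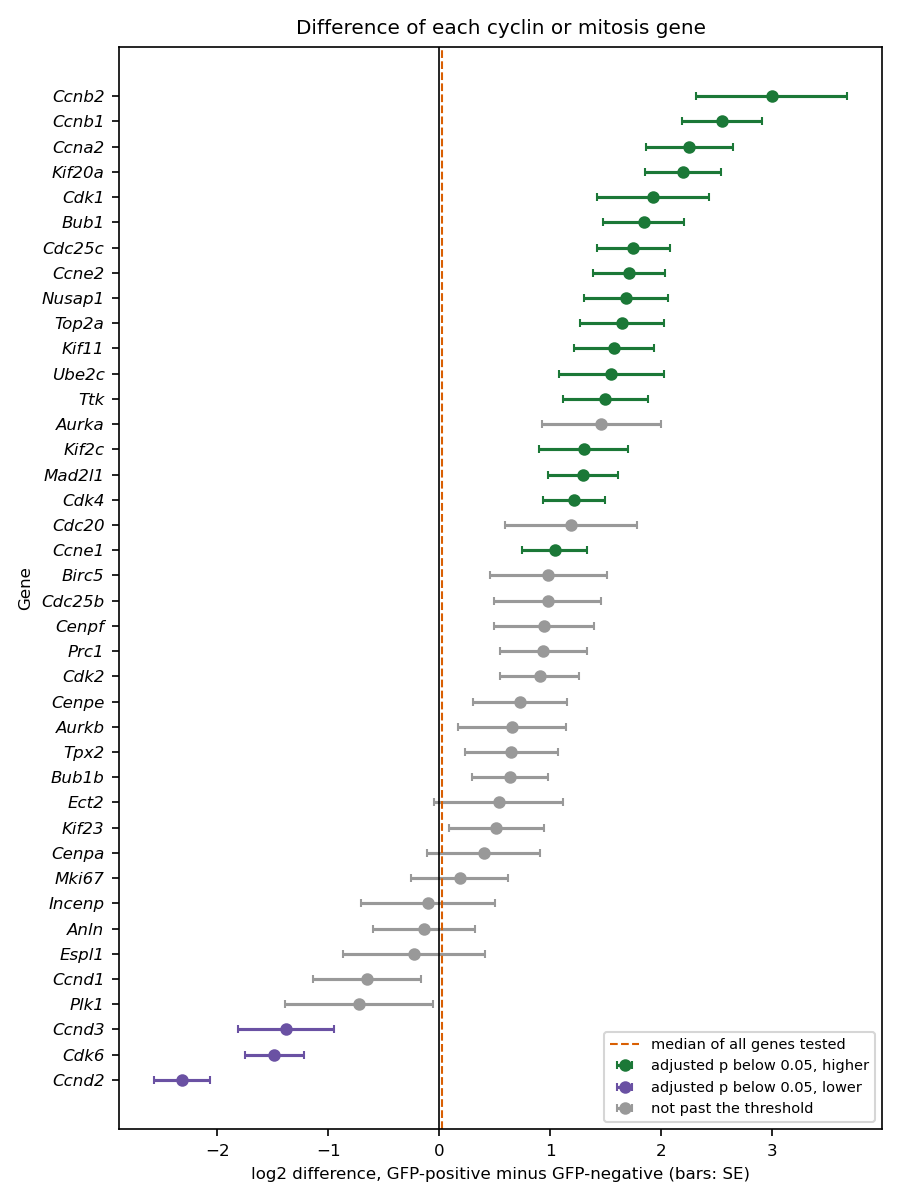
Log2 difference (GFP-positive minus GFP-negative, horizontal axis) of each of the 40 genes (vertical axis), with bars for the standard error and colour for the limma call. The 17 genes called higher run from Ccne1 (1.04) to Ccnb2 (3.00), the 3 called lower are Ccnd3, Cdk6 and Ccnd2, and the dashed line marks the median of all genes at 0.02; an equal sum of FPKM moved that median to -0.87 and turned 11 of the grey differences negative.

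These counts rest on few libraries. Without GFP-positive 7, 3 genes were called higher (Ccna2, Ccnb1 and Kif20a) and 1 lower (Ccnd2), beside 2.71% and 1.16% of all genes. Without GFP-negative M, 8 were called higher and 2 lower, beside 2.16% and 0.916% of all genes. Without GFP-negative 9, the library that stood apart, 15 were called higher and 5 lower, beside 18.9% and 18.1% of all genes, Ccnd1 and Plk1 having joined the lower genes. Without both GFP-negative 11 and M, which leaves 1 library in that group, limma called 0 genes of the whole table. Ccnd2, Ccna2, Ccnb1 and Kif20a kept their call whichever single library was left out. Scaling the libraries to an equal sum of FPKM moved the median of all genes to -0.87. It left 4 of the 40 genes called higher and 4 called lower, among 3.54% of all genes called higher and 42.1% called lower, and put the median of the 40 genes at 0.09, which was 0.95 above that of all genes. Under that scaling 11 of the 20 genes not called turned from a positive to a negative difference, while each of the 20 called genes kept its sign. Part of 10 of the 40 loci is spanned by a named gene on the opposite strand with a mean of at least 1 FPKM, and the sources used here do not give the strand setting of the assembly, so reads of such pairs may not be separated. The most highly expressed of these pairs was Cdk4 with Tspan31.

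Because many genes of this group peak together in G2 and M phase, their promoters are shown before their levels. A known feature of such promoters is the CHR, the cell-cycle genes homology region with the letters TTTGAA, which lies just downstream of CCAAT boxes bound by the factor NF-Y and recruits the MuvB complexes. Windows of 300 bases, from 250 before to 50 after the annotated start, came from RefSeq (GRCm38.p6, an older build than the mm39 of the expression tables). They were present for 31 of the 40 genes, and Ccnd1, Ccnd2, Ccne2, Ccna2, Cdc25c, Aurkb, Incenp, Kif20a and Tpx2 had no entry. TTTGAA, read on both strands, occurred in 19 of the 31 windows (61.3%) and in 20.2% of the 27025 genes of the table. The variant TTCGAA occurred in 4 (12.9% against 1.80%), CCAAT in 23 (74.2% against 41.1%), and TTTGAA together with CCAAT in 17 (54.8% against 7.97%). The motifs did not follow the calls: TTTGAA lay in 7 of 13 genes that rose and in 12 of 16 that did not pass, and in 0 of the 2 that fell. The 120 bases before the start are printed for 6 genes that span these cases, with TTTGAA and CCAAT, or their reverse complements TTCAAA and ATTGG, in capitals. Cdk1 (chr10:69352913-69353032, minus strand), Ube2c (chr2:164769809-164769928, plus strand) and Kif11 (chr19:37376262-37376381, plus strand) rose and carry both motifs. Cdc20 (chr4:118437344-118437463, minus strand) carries both and did not pass. Ccnb1 (chr13:100786487-100786606, minus strand) rose with CCAAT boxes and neither TTTGAA nor TTCGAA, and Cdk4 (chr10:127063415-127063534, plus strand) rose with none of these. Other spellings of the CHR were not searched. Each is written 5′ to 3′ on the strand of its gene.
Cdk1: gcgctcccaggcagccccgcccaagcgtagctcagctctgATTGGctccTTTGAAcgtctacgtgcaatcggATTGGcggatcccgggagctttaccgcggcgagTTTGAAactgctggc
Ube2c: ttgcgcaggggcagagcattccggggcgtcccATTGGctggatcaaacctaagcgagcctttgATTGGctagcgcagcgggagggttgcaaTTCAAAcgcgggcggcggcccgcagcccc
Kif11: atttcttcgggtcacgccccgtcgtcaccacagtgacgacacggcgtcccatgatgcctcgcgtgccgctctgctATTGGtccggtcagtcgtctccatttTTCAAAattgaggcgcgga
Cdc20: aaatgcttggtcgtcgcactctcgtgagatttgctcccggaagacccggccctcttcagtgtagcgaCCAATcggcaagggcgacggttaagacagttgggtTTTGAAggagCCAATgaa
Ccnb1: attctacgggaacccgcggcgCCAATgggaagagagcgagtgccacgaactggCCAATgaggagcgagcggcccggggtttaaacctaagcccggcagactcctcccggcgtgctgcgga
Cdk4: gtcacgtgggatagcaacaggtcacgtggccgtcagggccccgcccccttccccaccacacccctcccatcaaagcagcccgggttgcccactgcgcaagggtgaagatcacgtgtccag

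**Figure D2:**
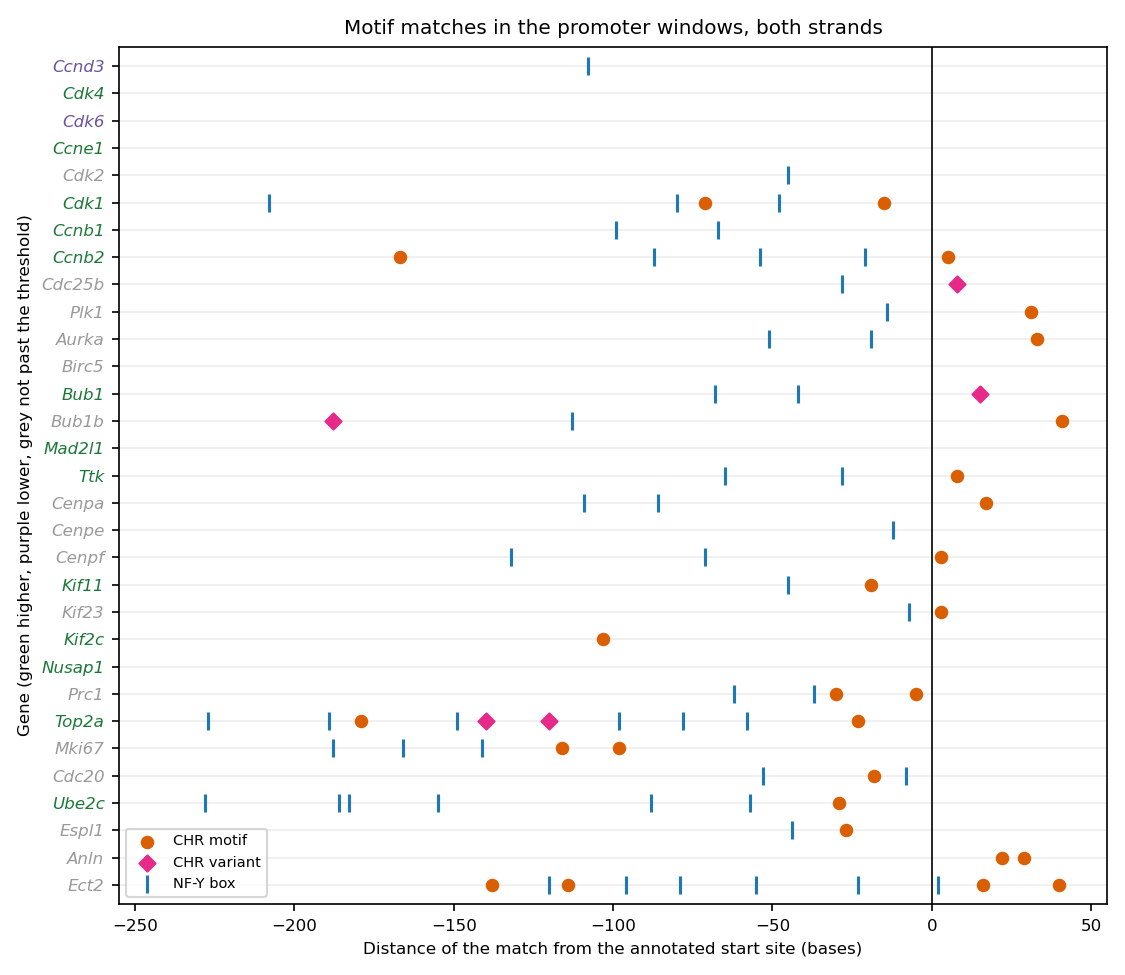
Position of each motif match (horizontal axis, bases from the annotated start) in the promoter windows of 31 genes (vertical axis; name in green for genes called higher, purple for lower, grey for neither). Circles mark the CHR motif, diamonds its variant and ticks the CCAAT box. The windows of Cdk4, Cdk6, Ccne1, Mad2l1, Nusap1 and Birc5 hold none, and Ect2, Top2a and Ube2c are among those that hold several. Matches are pooled over all windows of a gene, so in Ect2 and Prc1 the same site may be drawn repeatedly.

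In several windows a CCAAT box lay upstream of the CHR letters. In Cdk1, the kinase that drives entry into mitosis, TTTGAA began 15 bases before the start and the nearest CCAAT box 48 bases before it. In Kif11, a spindle motor, the distances were 19 and 45 bases, and in Espl1, the protease separase, they were 27 and 44 bases. Top2a, the DNA topoisomerase of mitotic chromosomes, and Ube2c held 6 CCAAT matches each. Matches were pooled over all annotated windows of a gene. In Ect2, a cytokinesis regulator, CCAAT matches recurred at a fixed offset, such as at -120 and -96 and at -79 and -55. The same sites may thus be listed repeatedly for Ect2, so its count is not given. A match is only a run of letters, and the 1 pair of matches that overlapped in these windows lay in Ube2c.

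The G1 genes were divided: Ccnd2, Ccnd3 and Cdk6 fell and Cdk4 rose, while Ccnd1 did not pass. Ccnd2 encodes cyclin D2, and its gene lies on chromosome 6 from 127102125 to 127129156 (mm39). Its level was 27.6, 27.5 and 24.5 FPKM in GFP-positive 2, 4 and 7, and 109, 148 and 149 FPKM in GFP-negative 9, 11 and M. The lowest GFP-negative library was thus far above the highest GFP-positive library. The means were 26.5 ± 1.78 and 135 ± 22.9 FPKM (SD, n = 3 each), a log2 difference of -2.32 (SE 0.25, limma adjusted p = 0.00378), 4.99-fold lower on the log2(scaled FPKM + 0.5) scale, which understates the change of low genes. Ccnd2 had the lowest adjusted p of the 40 genes, and 95.9% of its FPKM lay in a single transcript. Under an equal sum of FPKM its difference was -3.36, and with the trend with transcript length removed it was -1.80, both past the threshold.

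Ccnd3, cyclin D3 (chromosome 17, 47815976 to 47910616, mm39), gave 7.26, 7.73 and 7.62 FPKM in the GFP-positive and 9.26, 31.3 and 29.1 FPKM in the GFP-negative libraries. GFP-negative 9 was close to the GFP-positive libraries and the other 2 were well above them. The means were 7.54 ± 0.247 and 23.2 ± 12.1 FPKM (SD, n = 3 each), and the log2 difference was -1.38 (SE 0.43, limma adjusted p = 0.0467). That call was lost without any library other than GFP-negative 9 (limma adjusted p between 0.105 and 0.156). It was also lost with quantile normalization, with no filter, with no mean-variance trend and once the length trend was removed. Ccnd1, cyclin D1, gave 5.34, 3.61 and 6.62 FPKM against 3.39, 13.8 and 11.3 FPKM. The groups overlapped because GFP-negative 9 was the lowest of all 6 libraries, and the difference of -0.65 (SE 0.48) did not pass (limma adjusted p = 0.33), though it passed without that library.

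The kinases that D cyclins activate differed in opposite directions. Cdk6 (chromosome 5, 3391485 to 3581759, mm39) gave 1.29, 1.66 and 1.49 FPKM in the GFP-positive and 4.52, 6.25 and 4.47 FPKM in the GFP-negative libraries, without overlap. The log2 difference was -1.49 (SE 0.27, limma adjusted p = 0.0103). Leaving out GFP-positive 7 (limma adjusted p = 0.0532) or removing the length trend ended that call. Cdk4 (chromosome 10, 126899403 to 126903789, mm39) gave 139, 179 and 148 FPKM against 80.5, 67.3 and 53.6 FPKM, and was the most highly expressed of the 40 genes in the GFP-positive libraries. Every GFP-positive library was above every GFP-negative library, with means of 155 ± 20.8 and 67.2 ± 13.4 FPKM (SD, n = 3 each). The log2 difference of Cdk4 was 1.21 (SE 0.28, limma adjusted p = 0.0182). Leaving out GFP-positive 4, GFP-positive 7 or GFP-negative M ended the call (limma adjusted p between 0.0559 and 0.0932), as did quantile normalization, no filter, and an equal sum of FPKM, where its difference was 0.16. Tspan31, the gene on the opposite strand whose span overlaps the Cdk4 locus by 641 bases, gave 66.6, 76.9 and 65.9 FPKM against 52.9, 32.2 and 35.2 FPKM (log2 difference 0.82, limma adjusted p = 0.0561).

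The following sum, shares and ratios were chosen after the levels were seen. The sum depends on how libraries are scaled, while shares and ratios within a library do not. Summed over Ccnd1, Ccnd2 and Ccnd3, the D cyclins made up 40.2, 38.8 and 38.7 FPKM in the GFP-positive and 121.6, 193 and 189 FPKM in the GFP-negative libraries. Ccnd2 was the main D cyclin in every library, with 68.7%, 70.8% and 63.2% of that sum in the GFP-positive and 89.6%, 76.6% and 78.6% in the GFP-negative libraries. Cdk4 exceeded the summed D cyclins in the GFP-positive libraries, with ratios of 3.45, 4.605 and 3.83, and was below them in the GFP-negative libraries, with ratios of 0.662, 0.348 and 0.283. Cdk4 supplied 99.0% to 99.1% of the Cdk4 and Cdk6 sum in the GFP-positive libraries and 91.5% to 94.7% in the GFP-negative libraries. Each of these quantities separated the groups (exact permutation test, two-sided, p = 0.1, the smallest that 3 libraries against 3 allow, unadjusted over 12 such quantities). Because Cdk4 was higher and Cdk6 and the D-cyclin sum lower in every GFP-positive library, both Cdk4 quantities had to separate and add no evidence. Among the 12, Ccnb2 over Ccnb1, Ccnb1 over Cdk1 and Cdk4 over Mki67 overlapped between the groups (exact permutation test, two-sided, p = 0.3, 0.4 and 0.3).

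**Figure D3:**
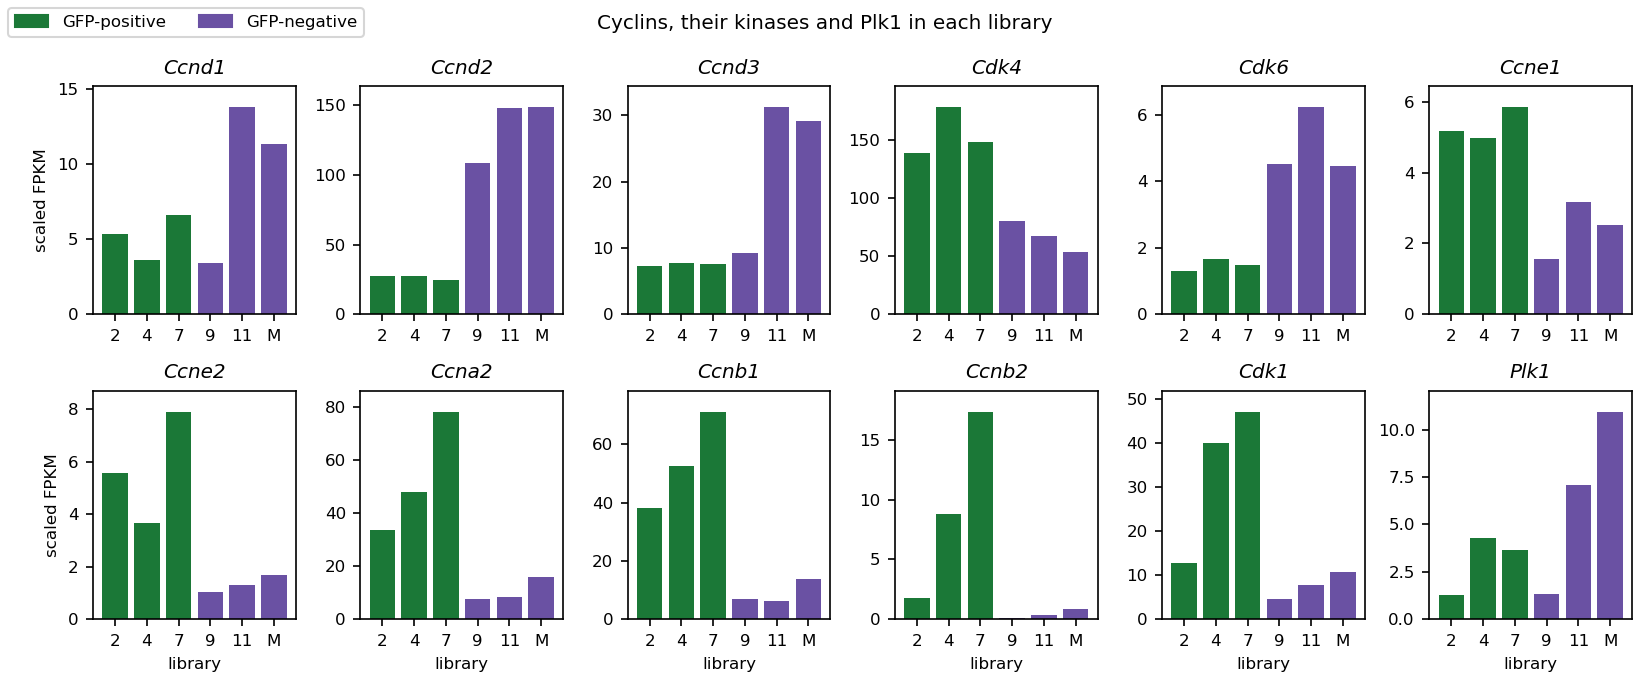
Scaled FPKM (vertical axis, from 0, with its own range in each panel) of 12 cyclin, kinase and Plk1 genes in each library (horizontal axis), as 1 bar per library with no error bar. Ccnd2, Ccnd3 and Cdk6 are lower and Cdk4, Ccne1, Ccne2, Ccna2, Ccnb1, Ccnb2 and Cdk1 higher in all 3 GFP-positive libraries, while Ccnd1 and Plk1 overlap because GFP-negative 9 lies low.

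The cyclins of the G1 to S transition and of S phase rose. Ccne1 and Ccne2 encode the E-type cyclins that activate Cdk2 at the start of DNA synthesis. Ccne1 gave 5.17, 4.97 and 5.87 FPKM in the GFP-positive and 1.56, 3.16 and 2.52 FPKM in the GFP-negative libraries, a log2 difference of 1.04 (SE 0.29, limma adjusted p = 0.0334). Ccne2 gave 5.56, 3.65 and 7.91 FPKM against 1.03, 1.32 and 1.68 FPKM, a log2 difference of 1.71 (SE 0.33, limma adjusted p = 0.0118). Neither overlapped between the groups. Leaving out any GFP-positive library or GFP-negative M ended the Ccne1 call (limma adjusted p between 0.0687 and 0.116), as did no filter and removing the length trend. Leaving out GFP-positive 7 or GFP-negative M ended the Ccne2 call (limma adjusted p of 0.0557 and 0.0535), and an equal sum of FPKM ended both.

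Ccna2, cyclin A2 (chromosome 3, 36619014 to 36626299, mm39), which acts in S phase and early mitosis, gave 33.6, 48.0 and 78.4 FPKM in the GFP-positive and 7.62, 8.49 and 16.001 FPKM in the GFP-negative libraries. Even the lowest GFP-positive library was above GFP-negative M, the highest of the others. The means were 53.3 ± 22.8 and 10.7 ± 4.61 FPKM (SD, n = 3 each), a log2 difference of 2.25 (SE 0.39, limma adjusted p = 0.00947) or 4.77-fold. The neighbouring gene Exosc9, on the opposite strand and overlapping by 863 bases, differed little (13.5, 7.24 and 10.5 FPKM against 7.29, 11.04 and 7.60 FPKM; limma adjusted p = 0.582). Cdk2, the kinase partner of the E- and A-type cyclins, gave 16.2, 17.4 and 15.1 FPKM against 4.56, 11.2 and 11.4 FPKM. Its groups did not overlap, but the log2 difference of 0.91 (SE 0.36) missed the threshold (limma adjusted p = 0.0876), passed with unnamed isoforms added, and was -0.11 with an equal sum of FPKM.

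Of 5 genes of mitotic entry 4 rose. Ccnb1, cyclin B1 (chromosome 13, 100915158 to 100923078, mm39), the partner of Cdk1 whose promoter is printed above, gave 38.1, 52.7 and 71.3 FPKM in the GFP-positive and 7.04, 6.29 and 13.8 FPKM in the GFP-negative libraries. All 3 GFP-positive libraries were above all 3 GFP-negative libraries, with means of 54.03 ± 16.7 and 9.06 ± 4.16 FPKM (SD, n = 3 each). The log2 difference was 2.55 (SE 0.36, limma adjusted p = 0.00681), 5.86-fold. Relative to Ccnd2 in the same library, Ccnb1 stood at 1.38, 1.92 and 2.92 in the GFP-positive and at 0.0646, 0.0425 and 0.0929 in the GFP-negative libraries. Because Ccnb1 was higher and Ccnd2 lower in every GFP-positive library, this ratio had to separate and adds no evidence.

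Ccnb2, cyclin B2 (chromosome 9, 70314974 to 70328960, mm39), had the widest difference of the 40 genes and the widest spread. It gave 1.75, 8.80 and 17.4 FPKM in the GFP-positive and 0.125, 0.372 and 0.856 FPKM in the GFP-negative libraries. The log2 difference was 3.00 (SE 0.68, limma adjusted p = 0.0182). It no longer passed when GFP-positive 4, GFP-positive 7 or GFP-negative M was left out (limma adjusted p between 0.0597 and 0.0630) or when no filter was used. Cdk1 (chromosome 10, 69170976 to 69188768, mm39) gave 12.8, 40.05 and 47.1 FPKM against 4.49, 7.85 and 10.7 FPKM. GFP-positive 2 was only just above GFP-negative M. The log2 difference of Cdk1 was 1.93 (SE 0.51, limma adjusted p = 0.0271). It held only without GFP-positive 2 or GFP-negative 9 (limma adjusted p between 0.0558 and 0.0989 without each of the others), and not with an equal sum of FPKM or no filter.

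The Cdc25 phosphatases activate Cdk1 by removing inhibitory phosphates. Cdc25c gave 4.08, 6.16 and 7.63 FPKM in the GFP-positive and 1.13, 1.06 and 2.05 FPKM in the GFP-negative libraries, a log2 difference of 1.75 (SE 0.33, limma adjusted p = 0.0114) that did not pass once GFP-positive 7 was left out (limma adjusted p = 0.0557) or under an equal sum of FPKM. Cdc25b overlapped, with 2.26, 5.16 and 4.48 FPKM against 0.547, 2.55 and 2.69 FPKM, and did not pass (log2 difference 0.98, SE 0.48, limma adjusted p = 0.155).

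The rise of Ccnb1 and Cdk1 was carried by their main transcripts, with a second transcript that varied within the GFP-positive group. For Ccnb1 the main transcript (ENSMUST00000072119) stood at 32.6, 39.2 and 45.4 FPKM in the GFP-positive and at 4.73, 4.45 and 8.53 FPKM in the GFP-negative libraries. The second (ENSMUST00000091295) stood at 0.480, 6.05 and 15.3 FPKM, and at 0.904, 1.0995 and 0.797 FPKM. GFP-positive 2 thus lacked nearly all of the second transcript that GFP-positive 4 and 7 showed. Cdk1 had the same pattern, its second transcript (ENSMUST00000119827) giving 0.433, 8.48 and 9.36 FPKM in the GFP-positive and 0.284, 2.84 and 0.903 FPKM in the GFP-negative libraries. Shares between transcripts of a gene are estimates of the assembler and were not tested.

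None of the 5 mitotic kinases and chromosomal passenger proteins passed. Plk1, the polo kinase of centrosomes and spindle poles, gave 1.28, 4.26 and 3.63 FPKM in the GFP-positive and 1.32, 7.09 and 11.0 FPKM in the GFP-negative libraries. GFP-positive 2 and GFP-negative 9 were alike and low, and GFP-negative 11 and M were the highest, so Plk1 lay on the other side of 0 from Ccnb1 (log2 difference -0.72, SE 0.67, limma adjusted p = 0.427). It was called lower without GFP-negative 9, and its difference was 0.78 without GFP-negative 11 and M together. Relative to Ccnb1 in the same library, Plk1 stood at 0.0337, 0.0809 and 0.0510 in the GFP-positive and at 0.188, 1.13 and 0.792 in the GFP-negative libraries (exact permutation test, two-sided, p = 0.1).

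Aurka, the aurora kinase of the spindle poles, gave 8.13, 20.7 and 22.7 FPKM against 2.28, 7.04 and 9.24 FPKM. GFP-positive 2 fell among the GFP-negative libraries, and the log2 difference of 1.46 (SE 0.53) missed the threshold (limma adjusted p = 0.0721). Aurkb, Incenp and Birc5 encode the aurora kinase, the scaffold and survivin of the chromosomal passenger complex, which corrects chromosome attachment. Their log2 differences were 0.66, -0.10 and 0.98 (limma adjusted p = 0.327, 0.909 and 0.185), and those of Aurkb and Birc5 were negative with an equal sum of FPKM. Incenp gave 2.39, 3.53 and 4.70 FPKM against 0.934, 5.98 and 7.56 FPKM, its lowest and highest libraries both being GFP-negative.

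**Figure D4:**
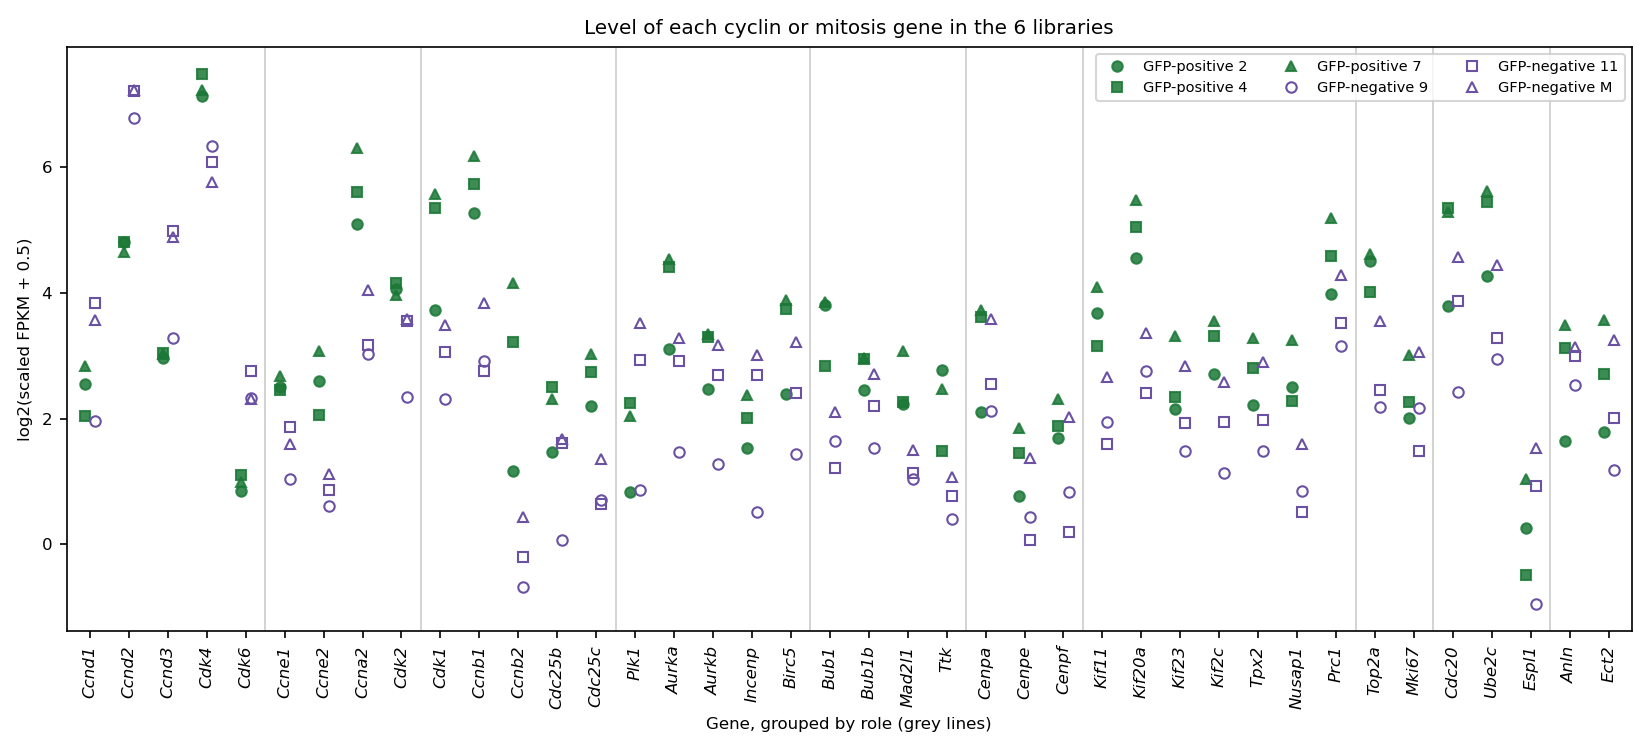
Level of each of the 40 genes, as log2(scaled FPKM + 0.5) (vertical axis), in each library, genes grouped by role along the horizontal axis. Filled green symbols are the GFP-positive and open purple symbols the GFP-negative libraries; GFP-positive 7 (filled triangle) tops its group for 31 genes and GFP-negative M (open triangle) tops its group for 35.

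The spindle checkpoint holds back anaphase until every chromosome is attached, and 3 of its 4 genes rose. Bub1, a checkpoint kinase, gave 13.5, 6.66 and 13.9 FPKM in the GFP-positive and 2.64, 1.82 and 3.79 FPKM in the GFP-negative libraries, without overlap (log2 difference 1.84, SE 0.36, limma adjusted p = 0.0125). Mad2l1, which inhibits Cdc20, gave 4.22, 4.28 and 7.94 FPKM against 1.56, 1.70 and 2.34 FPKM (log2 difference 1.29, SE 0.32, limma adjusted p = 0.0222). Ttk, the kinase that starts the checkpoint, gave 6.35, 2.28 and 5.06 FPKM against 0.823, 1.21 and 1.60 FPKM (log2 difference 1.49, SE 0.38, limma adjusted p = 0.025). In Bub1 and Ttk the lowest GFP-positive library was GFP-positive 4, not GFP-positive 2. Without GFP-positive 7 all 3 calls were lost. Without GFP-negative 11 or M those of Mad2l1 and Ttk were lost, and without GFP-positive 2 that of Ttk (limma adjusted p between 0.0554 and 0.0926 over these fits). An equal sum of FPKM, or no filter, also ended all 3. Bub1b did not pass (log2 difference 0.64, limma adjusted p = 0.189; -0.33 with an equal sum of FPKM).

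Cenpa, the centromeric histone, Cenpe, a kinetochore motor, and Cenpf, a kinetochore protein of G2 and M phase, did not pass. Their log2 differences were 0.40, 0.73 and 0.94 (limma adjusted p = 0.574, 0.218 and 0.146), the first 2 being negative with an equal sum of FPKM. Cenpa gave 3.82, 11.8 and 12.7 FPKM in the GFP-positive and 3.83, 5.37 and 11.5 FPKM in the GFP-negative libraries. GFP-positive 2 and GFP-negative 9 again shared the low values, and GFP-negative M was near GFP-positive 4 and 7. Cenpf passed with the length trend removed.

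Of 7 spindle motors and microtubule proteins 4 rose. Kif20a, a kinesin of the central spindle, gave 23.1, 32.5 and 44.2 FPKM in the GFP-positive and 6.24, 4.78 and 9.72 FPKM in the GFP-negative libraries. The groups were well apart, with means of 33.3 ± 10.6 and 6.91 ± 2.54 FPKM (SD, n = 3 each) and a log2 difference of 2.19 (SE 0.34, limma adjusted p = 0.0075), 4.57-fold. Its FPKM was divided among 3 protein-coding transcripts of nearly equal length, and which of them was highest differed between libraries. Cdc23 lies on the opposite strand and overlaps Kif20a by 2327 bases, with 19.8, 22.1 and 18.7 FPKM against 13.9, 11.3 and 10.9 FPKM (log2 difference 0.73, limma adjusted p = 0.0511).

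Kif11, which pushes spindle poles apart, gave 12.3, 8.39 and 16.5 FPKM against 3.33, 2.54 and 5.80 FPKM (log2 difference 1.58, SE 0.36, limma adjusted p = 0.0183). Nusap1, a microtubule bundling protein, gave 5.16, 4.33 and 8.95 FPKM against 1.29, 0.936 and 2.52 FPKM (log2 difference 1.69, SE 0.38, limma adjusted p = 0.0175). Both calls were lost without GFP-positive 7 (limma adjusted p = 0.0770 and 0.0723), under an equal sum of FPKM and when no filter was used. Oip5, which overlaps Nusap1 on the opposite strand by 172 bases, was also higher (5.14, 5.35 and 8.15 FPKM against 0.862, 1.12 and 1.44 FPKM, log2 difference 2.02, limma adjusted p = 0.00688). Kif2c, which shortens microtubules at the kinetochore, gave 6.01, 9.45 and 11.2 FPKM against 1.70, 3.35 and 5.46 FPKM (log2 difference 1.302, SE 0.40, limma adjusted p = 0.0442). Its lowest GFP-positive library was close to GFP-negative M, and the call was lost without any library other than GFP-positive 2 (limma adjusted p between 0.0637 and 0.144), under an equal sum of FPKM, when no filter was used, without non-coding transcripts and once the length trend was removed. Kif23, Tpx2 and Prc1 did not pass, with log2 differences of 0.51, 0.65 and 0.94 (limma adjusted p = 0.383, 0.262 and 0.104), all negative with an equal sum of FPKM. Prc1, which bundles the central spindle, was the highest of the 3 at 15.4, 23.4 and 36.1 FPKM against 8.36, 10.9 and 19.0 FPKM.

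Both chromosome proteins are used as markers of cycling cells, and they differed. Top2a gave 22.2, 15.7 and 24.0 FPKM in the GFP-positive and 4.06, 4.996 and 11.2 FPKM in the GFP-negative libraries (log2 difference 1.65, SE 0.38, limma adjusted p = 0.0186). Leaving out GFP-positive 7 or GFP-negative 11 ended its call (limma adjusted p of 0.0751 and 0.0507), as did an equal sum of FPKM and no filter. Mki67, which encodes the Ki-67 protein that coats mitotic chromosomes, gave 3.51, 4.30 and 7.55 FPKM against 3.98, 2.31 and 7.85 FPKM. Its means of 5.12 ± 2.14 and 4.71 ± 2.84 FPKM (SD, n = 3 each) differed by less than their spread, with a log2 difference of 0.19 (SE 0.44, limma adjusted p = 0.768) whose sign turned under 5 of the alternatives, among them an equal sum of FPKM. With the length trend removed the difference of Mki67 was 0.88, which also did not pass (limma adjusted p = 0.18). GFP-positive 7 and GFP-negative M were its highest libraries and nearly equal.

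At anaphase onset Ube2c rose and Cdc20 and Espl1 did not pass. Ube2c, the ubiquitin-conjugating enzyme of the anaphase-promoting complex, gave 18.7, 43.1 and 48.5 FPKM in the GFP-positive and 7.21, 9.23 and 21.2 FPKM in the GFP-negative libraries. GFP-positive 2 lay below GFP-negative M, so the groups overlapped although the test passed (log2 difference 1.55, SE 0.47, limma adjusted p = 0.0431). The call was lost without any library other than GFP-positive 2 (limma adjusted p between 0.0579 and 0.142), under an equal sum of FPKM, with quantile normalization, when no filter was used and once the length trend was removed. Cdc20, the activator of that complex, gave 13.2, 40.3 and 38.3 FPKM against 4.83, 14.1 and 23.1 FPKM (log2 difference 1.19, SE 0.59, limma adjusted p = 0.16). It shared with Ube2c the low value in GFP-positive 2 and the high value in GFP-negative M. Espl1, separase, had the lowest mean of the 40 genes over the 6 libraries, with 0.703, 0.210 and 1.55 FPKM against 0.0163, 1.39 and 2.38 FPKM. In its lowest library it was covered by 0.350 kb of aligned bases, so its difference of -0.23 (SE 0.64, limma adjusted p = 0.807) rests on little sequence.

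The cytokinesis genes did not pass. Anln, anillin of the contractile ring, gave 2.64, 8.16 and 10.7 FPKM in the GFP-positive and 5.30, 7.45 and 8.29 FPKM in the GFP-negative libraries (log2 difference -0.14, SE 0.46, limma adjusted p = 0.836). The highest and the lowest library were both GFP-positive. Ect2, which activates RhoA at the cleavage plane, gave 2.93, 6.02 and 11.4 FPKM against 1.77, 3.54 and 9.01 FPKM (log2 difference 0.53, SE 0.58, limma adjusted p = 0.507; -0.43 with an equal sum of FPKM).

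Within each group most of the 40 genes were highest in the same library. Summed, they gave 492, 701 and 831 FPKM in GFP-positive 2, 4 and 7 and 309.5, 428 and 524 FPKM in GFP-negative 9, 11 and M. The sums of the groups thus overlapped, GFP-negative M being above GFP-positive 2. GFP-positive 7 was the highest of its group for 31 genes, against 25.1% of all genes tested, and GFP-negative M for 35, against 22.9%. GFP-positive 2 was the lowest of its group for 29 genes (37.7% of all genes) and GFP-negative 9 for 29 (41.4%). Between GFP-negative M and GFP-positive 2, 23 of the 40 genes were higher in the GFP-negative library and 17 in the GFP-positive library. Of the 17 genes that rose, 15 were highest of all 6 libraries in GFP-positive 7, and Cdk4 and Ttk were the others. The lowest GFP-positive library was GFP-positive 2 for 10 of them and GFP-positive 4 for 7, the latter being Ccne1, Ccne2, Bub1, Ttk, Kif11, Nusap1 and Top2a. For the comparison of GFP-negative M with GFP-positive 2 and for the counts over the 17 genes, no share of all genes was computed. Why the libraries of a group differ was not tested.

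Protein-coding transcripts held 86.0% to 88.9% of the summed FPKM of these genes in the 6 libraries and retained-intron transcripts 8.50% to 11.2%, by the transcript classes of GENCODE M21. Unnamed isoforms assembled at the same loci, which the sums leave out, existed for 13 of the 40 genes. In Cdk6 the unnamed isoform held 54.0% of the locus and gave 0.976, 1.87 and 1.69 FPKM in the GFP-positive and 4.39, 5.20 and 8.98 FPKM in the GFP-negative libraries, the same order of groups as the named transcripts. With unnamed isoforms added all 20 calls held and Cdk2 was also called higher.

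The wider cell-cycle machinery was divided into 11 lists by role, none of which holds any of the 40 genes. Of 132 listed genes tested, 39 rose and 3 fell, beside 14.5% and 11.4% of all genes, and 6 of these 42 kept their call whichever library was left out (Nuf2, Cenpn, Cenpp, Cenpw, Cks2 and Mcm7). Without GFP-positive 7, 8 listed genes were called higher and 0 lower, beside 2.71% and 1.16% of all genes. Without GFP-negative M, 9 were called higher and 0 lower, beside 2.16% and 0.916%. With an equal sum of FPKM 7 of 133 were higher and 28 lower, beside 3.54% and 42.1% of all genes. Other kinetochore proteins, which join chromosomes to the spindle, had 12 of 21 genes higher and 1 lower (Cenpt, -0.997), with a median log2 difference of 1.26. Cenpw, a centromere protein, gave 4.43, 4.15 and 6.07 FPKM in the GFP-positive and 1.00, 0.581 and 0.746 FPKM in the GFP-negative libraries (log2 difference 2.07, limma adjusted p = 0.00668), and Cenpn, Cenpp and Nuf2 had differences of 1.67, 1.99 and 2.12. Of 21 replication genes 8 rose and 0 fell (median 0.86). The strongest by adjusted p were Orc6 (1.67) and Gmnn (1.62), a subunit of the origin recognition complex and geminin, the inhibitor of licensing, then Mcm7 (2.63), a subunit of the replicative helicase, and Prim1 (2.05), the primase subunit. Mcm7 gave 29.4, 10.3 and 35.9 FPKM against 2.24, 3.86 and 3.66 FPKM (limma adjusted p = 0.00953), while the helicase subunits Mcm2 to Mcm6 did not pass, with differences from -0.69 (Mcm4) to 1.09 (Mcm5).

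The counts of the next 5 lists stand beside 14.5% of all genes called higher and 11.4% called lower. The list of other mitotic kinases, phosphatases and passengers had 4 of 17 genes higher and 0 lower (median 0.64). Cks2, a small subunit that binds Cdk1, gave 46.6, 65.7 and 78.5 FPKM in the GFP-positive and 14.2, 7.84 and 13.1 FPKM in the GFP-negative libraries (log2 difference 2.40, SE 0.32, limma adjusted p = 0.00634), and Ckap2 (2.13), Hmmr (1.57) and Haspin (1.15) were the others. Of 17 genes of the anaphase-promoting complex and its regulators 5 rose, 1 fell (Anapc7, -1.62) and 11 did not pass, with a median of 0.70. The lowest adjusted p among those that rose belonged to Ube2s (1.52) and Fbxo5 (1.77, an inhibitor of the complex), which are not subunits. The others that rose were the subunits Anapc10, Anapc13 and Cdc16. Ube2s, which extends the ubiquitin chains that Ube2c begins, gave 82.0, 147 and 133 FPKM against 35.01, 42.9 and 44.6 FPKM. Of 11 genes of the cohesin list, which also holds regulators, 2 rose, a share near that of all genes, and the median was -0.30. They were the regulators Pttg1 (securin, 1.91) and Sgo1 (shugoshin, 1.05). The other 9 did not pass, 7 of them with negative differences, from -0.03 (Wapl) to -1.26 (Nipbl, the cohesin loader), the ring subunits Smc1a, Smc3 and Rad21 among them. Of 8 condensin genes 3 rose (Ncapd3, Ncapg and Ncaph; median 0.47), and of 8 other mitotic kinesins 2 rose (Kif18a, 2.06, and Kif20b, 1.25; median 0.65).

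Upstream of these genes, 1 of 9 Cdk inhibitors and Wee1 kinases rose and 1 fell (median 0.26), against 25.9% of all genes called in either direction, a share near that background. Cdkn1a, the p21 inhibitor of cyclin-dependent kinases, gave 42.9, 34.2 and 54.2 FPKM in the GFP-positive and 87.8, 102 and 114 FPKM in the GFP-negative libraries, without overlap (log2 difference -1.22, SE 0.27, limma adjusted p = 0.0177). Cdkn2d, the p19 inhibitor of Cdk4 and Cdk6, gave 7.38, 16.4 and 13.1 FPKM against 4.84, 3.82 and 6.15 FPKM (log2 difference 1.18, limma adjusted p = 0.0351). Both calls were lost without GFP-positive 4, GFP-positive 7 or GFP-negative M, and that of Cdkn2d also without GFP-negative 11. Of 12 tested Rb and E2F genes only E2f5 passed (1.15, limma adjusted p = 0.0229; median 0.12; E2f2 was under the filter). None of the 7 genes of the MuvB complex, B-Myb and FoxM1, the factors that act through the CHR, passed the threshold (median 0.20). Rbbp4 and Lin52 had the highest means of that list, Rbbp4 with 41.4, 62.2 and 47.6 FPKM against 57.7, 43.5 and 48.9 FPKM. Of the germline forms Ccna1, Ccnb3 and Aurkc were under the filter, and Ccnb1ip1, which acts in meiotic recombination, rose (5.55, 4.94 and 5.65 FPKM against 2.14, 0.478 and 0.602 FPKM, log2 difference 2.05, limma adjusted p = 0.0118).

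**Figure D5:**
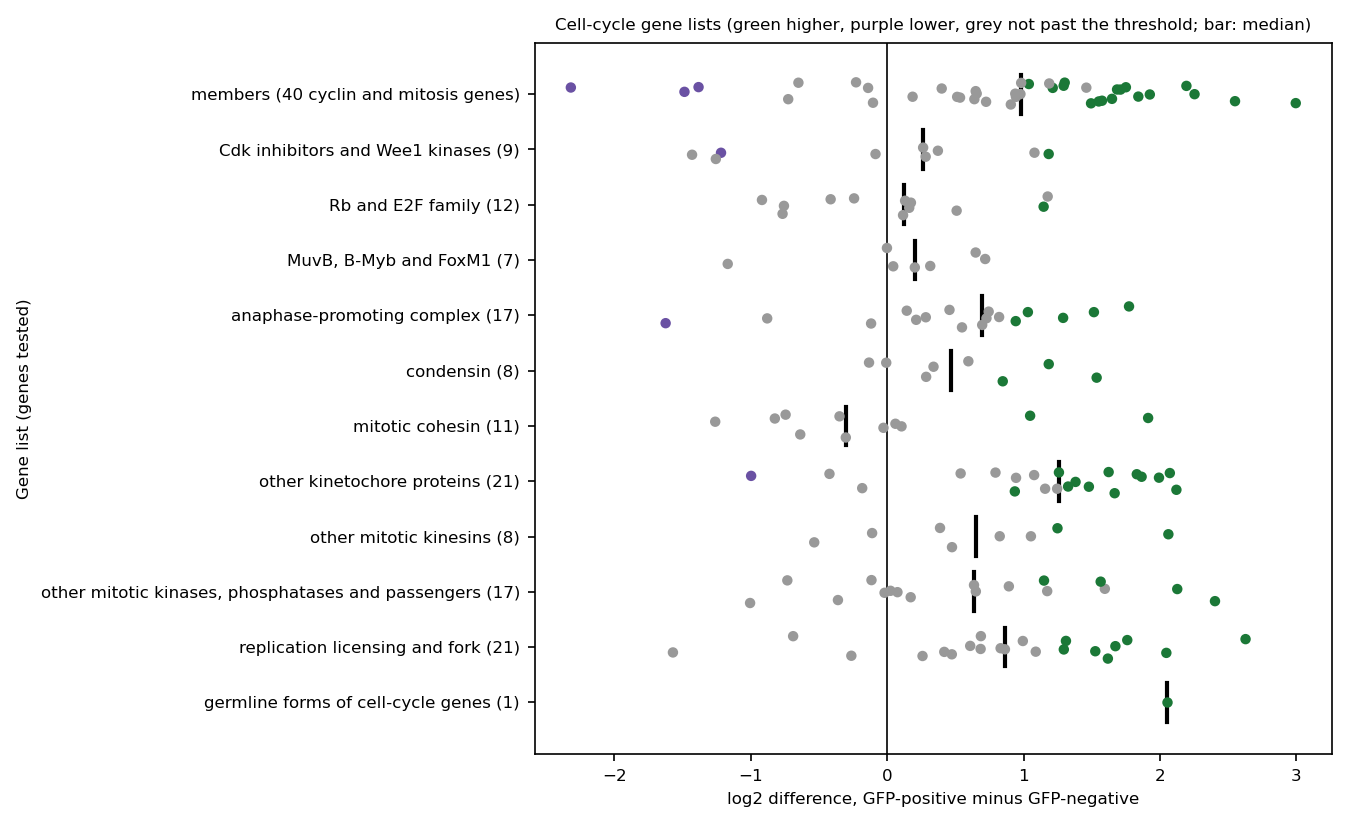
Log2 difference (GFP-positive minus GFP-negative, horizontal axis) of each gene tested in the 40 genes and the 11 other cell-cycle lists (vertical axis, number tested in brackets), coloured by the limma call, with a black bar at each list's median. The kinetochore list has a median of 1.26 and the 40 genes 0.98, against 0.02 for all genes; an equal sum of FPKM moved that of all genes to -0.87.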

How the data were processed

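TRIzol-extracted RNA was treated with DNase and cleared of ribosomal RNA, and dUTP libraries that keep the strand were made, per the labels' protocols. Per the submitters' processing notes, reads were handled with Trimmomatic, HISAT2 and StringTie on mm39, without versions or roles. The deposited FPKM, 1 value for each of 153503 transcripts per library, were made by the authors with no read counts beside them, so depth is known only as aligned bases, no counting interval can be given, and a count test does not apply. The deposited mean coverage per base, a signal, was used only for those aligned bases.

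FPKM were summed per gene name (Python 3.11.15, pandas 2.3.3). Unnamed isoforms at named loci, 7902 transcripts with 5.36% to 8.16% of the FPKM of a library, were left out. Scaling factors were median ratios to the geometric mean, taken over 12360 genes with a value above 0 in every library and a mean FPKM of 1 or more. Genes with a mean scaled FPKM under 0.5 or whose longest transcript was under 200 nt were left out. limma 3.58.1 (R 4.3.3), with a mean-variance trend, tested log2(scaled FPKM + 0.5) over 15118 genes, two-sided, at a Benjamini-Hochberg adjusted p below 0.05, after a check on simulated data. Groups came from the sample titles. The closing section gives the effect of other pseudocounts, filters, scalings, variance models, gene definitions, a length correction and left-out libraries.

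The 40 genes, the pathway lists and the marker lists were chosen with earlier results of these data known, so a count over them is not independent evidence. Each of the 40 genes past the threshold is given by library. From each pathway list up to 4 genes past the threshold by adjusted p are named, or the 2 of highest mean, and from the Sertoli and germ cell lists the 2 of highest mean. Other listed genes named beside these were chosen after their values were seen. Promoter windows were from RefSeq (GRCm38.p6) and were searched for exact letters on both strands, and a gene counted once if any of its windows held a match.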

Additional observations from a re-analysis of the deposited data

Results flagged for a closer look

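Unnamed isoforms, left out of the gene sums, existed at 13 of the 40 loci. At 2 of these, Ect2 and Top2a, every GFP-positive library lay above every GFP-negative library. Among the gene sums of all genes tested that share was 23.6%, and 22.1% lay the other way. At Cdk6, given above, and at Incenp the unnamed isoform lay below every GFP-negative library. That of Incenp gave 0.185, 0.666 and 0.115 FPKM in GFP-positive 2, 4 and 7 and 0.838, 1.98 and 3.51 FPKM in GFP-negative 9, 11 and M. At Ect2 the unnamed isoform gave 2.47, 4.67 and 8.89 FPKM in GFP-positive 2, 4 and 7 and 2.04, 1.67 and 2.24 FPKM in GFP-negative 9, 11 and M, while the named transcripts overlapped. At Top2a 2 unnamed isoforms gave 16.3, 11.5 and 23.0 FPKM and 7.10, 8.22 and 8.48 FPKM, the same order of groups as the named transcripts. These isoforms were not tested on their own.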

How the results depend on the processing

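Ccnd2, Ccna2, Ccnb1 and Kif20a kept their call under every alternative except the fit without GFP-negative 11 and M together, where GFP-negative 9 alone stood for its group and was assumed to vary like the others. That fit called 0 genes (limma, 3350 with an unadjusted p under 0.05) and 0 of the 40 genes in either direction (30 with an unadjusted p under 0.05). Across all genes the count of 3915 became 1085 with no filter, 6984 with an equal sum of FPKM, 11104 with library weights, whose estimation did not converge, 8328 with weights estimated gene by gene (added after seeing the data), and 2321 with the length trend removed, and leaving out 1 library at a time gave 466 to 5630. The 17 genes called higher became 5 with no filter and 4 with an equal sum of FPKM, and 3 to 16 with 1 library left out. The 3 called lower became 6 with library weights, 5 with gene-by-gene weights and 1 with the length trend removed, and 1 to 5 with 1 library left out. The median of 0.98 became 0.086 with an equal sum of FPKM, 0.61 with library weights, 0.65 without GFP-negative 9 and 1.53 without GFP-negative 11 and M together. Of the 20 calls, 17 held without GFP-positive 2, 13 without GFP-positive 4, 4 without GFP-positive 7, 18 without GFP-negative 9, 13 without GFP-negative 11 and 10 without GFP-negative M. The cause of these shifts was not tested.

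The differences that turned sign all belonged to genes that had not passed. With an equal sum of FPKM they were Cdk2 (-0.11), Aurkb (-0.33), Birc5 (-0.0057), Bub1b (-0.33), Cenpa (-0.59), Cenpe (-0.062), Kif23 (-0.44), Tpx2 (-0.31), Prc1 (-0.088), Mki67 (-0.76) and Ect2 (-0.43). Without GFP-negative 11 and M together they were Ccnd1 (0.44), Plk1 (0.78), Incenp (1.40), Espl1 (1.22) and Anln (0.13). Incenp also turned with the length trend removed (0.037), without non-coding transcripts (0.13, added after seeing the data), and without GFP-positive 2, GFP-negative 11 or GFP-negative M (-0.89 to 0.33 with 1 library left out). Mki67 turned with library weights (-0.20), gene-by-gene weights (-0.061) and without GFP-positive 7 or GFP-negative 11 (-0.22 to 0.56 with 1 library left out). Espl1 turned with the length trend removed (0.33) and without GFP-positive 4 or GFP-negative M (-0.96 to 0.26 with 1 library left out). Anln turned with library weights (0.13), unnamed isoforms added (0.31), the length trend removed (0.23), gene-by-gene weights (0.067) and without GFP-positive 2 (-0.48 to 0.43 with 1 library left out), and Ect2 without non-coding transcripts (-0.021). No paired analysis was possible because the groups share no replicate number. The deposited values give no counts, so the precision of low genes such as Espl1 and Ccnb2 is limited by a depth that is known only as aligned bases.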
